A study of Mus musculus with 16 samples.

Results

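In E14 ESC, 360 genomic regions carried Jarid2 peaks that were broken into 2 or more peaks in the list for Jarid2 dimethylated at K116 (Jarid2-K116me2), a lysine. The regions were found by merging overlapping peaks (by 1 bp or more) of the Jarid2 and the Jarid2-K116me2 ChIP-seq lists, and by keeping the merged regions with at least 1 Jarid2 peak and at least 2 Jarid2-K116me2 peaks. They are called split regions here. Merging gave 5001 regions, of which 3896 held peaks of both antibodies (common regions), 1045 held Jarid2 peaks alone and 60 held Jarid2-K116me2 peaks alone. The other 3536 common regions held 1 Jarid2-K116me2 peak each and are called single-peak regions. The numbers, widths and scores of the Jarid2-K116me2 peaks and the gaps between them follow from the way the regions were chosen, and are given as a description without a test.

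E14 is a wild-type mouse ESC line, grown here in serum with LIF. Each of the antibodies was used on 1 sample, with an input as control, so that no Jarid2 or Jarid2-K116me2 value has a replicate error. The same series holds peak lists of H3K27me3, the mark deposited by PRC2, from 12 samples, which were not used to choose the regions. They come from 3 lines that all lack endogenous Jarid2: Jarid2 -/- ESC (KO), Jarid2 -/- ESC carrying a bacterial artificial chromosome (BAC) with Jarid2 (Jarid2 rescue), and Jarid2 -/- ESC carrying a BAC in which K116 of Jarid2 is changed to alanine (K116A rescue). Each line was sampled as ESC in serum with LIF and as embryoid bodies (EBs) at day 8, formed in hanging drops without LIF, with 2 replicates each. The BACs were integrated through a transposon, and the sources used here do not say whether each line is 1 clone. The H3K27me3 lists hold no wild-type sample, and the lists hold no measurement of Jarid2 itself by which the labels of the lines could be checked. The study describes the H3K27me3 replicates as independent biological samples. The peak lists hold no read numbers, so the number of reads behind a single peak is not known from them. Of 26 annotated pluripotency factor genes, 22 had no Jarid2 or Jarid2-K116me2 peak at a transcription start site (TSS), and none of 28 annotated housekeeping genes had one.

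Jarid2 is a subunit of PRC2, the complex that methylates lysine 27 of histone H3 and keeps developmental genes silent. K116 is the lysine of Jarid2 whose methylation by PRC2 the study addressed. In ESC, PRC2 and Jarid2 occupy CpG islands, stretches of DNA rich in CG dinucleotides (CpG) found at many promoters, and cover the Hox clusters and other loci of lineage regulators over long distances.

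The sequences below show what lay at and around the breaks. All are from the forward strand of mm9 (NCBIM37), 120 bases long, centred on the midpoint of a gap or of a Jarid2-K116me2 peak, with CpG in capitals. The first set was chosen to show wide gaps beside their flanking peaks: the widest gap of each of the HoxC and HoxB clusters, the regions with the most Jarid2-K116me2 peaks, and a further gap among the widest, at Vax2.
HoxC, peak before the gap (chr15:102775294-102775413): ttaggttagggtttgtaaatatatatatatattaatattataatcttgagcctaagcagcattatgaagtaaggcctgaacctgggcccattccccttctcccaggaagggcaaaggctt
HoxC, gap (chr15:102776667-102776786): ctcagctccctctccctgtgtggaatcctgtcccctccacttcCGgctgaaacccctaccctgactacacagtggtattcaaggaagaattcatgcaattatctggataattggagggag
HoxC, peak after the gap (chr15:102778101-102778220): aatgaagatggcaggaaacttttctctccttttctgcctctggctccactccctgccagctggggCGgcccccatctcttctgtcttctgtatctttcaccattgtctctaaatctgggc
HoxB, peak before the gap (chr11:96194261-96194380): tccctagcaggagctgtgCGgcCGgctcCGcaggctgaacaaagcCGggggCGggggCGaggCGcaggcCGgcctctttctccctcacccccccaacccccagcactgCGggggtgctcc
HoxB, gap (chr11:96196393-96196512): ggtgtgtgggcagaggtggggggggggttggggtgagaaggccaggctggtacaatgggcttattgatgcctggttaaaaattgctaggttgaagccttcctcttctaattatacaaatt
HoxB, peak after the gap (chr11:96203269-96203388): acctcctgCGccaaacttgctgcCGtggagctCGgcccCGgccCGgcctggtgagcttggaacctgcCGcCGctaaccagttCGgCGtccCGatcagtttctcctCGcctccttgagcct
Vax2, peak before the gap (chr6:83653422-83653541): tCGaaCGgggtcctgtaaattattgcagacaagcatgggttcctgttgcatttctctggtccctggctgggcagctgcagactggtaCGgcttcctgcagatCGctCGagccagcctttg
Vax2, gap (chr6:83656278-83656397): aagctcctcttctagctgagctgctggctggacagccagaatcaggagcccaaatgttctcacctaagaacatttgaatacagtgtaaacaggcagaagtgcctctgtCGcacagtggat
Vax2, peak after the gap (chr6:83660527-83660646): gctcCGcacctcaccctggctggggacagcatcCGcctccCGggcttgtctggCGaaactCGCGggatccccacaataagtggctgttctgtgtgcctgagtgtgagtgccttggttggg

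The 1833 bp gap in the HoxC cluster held 1 CpG in these 120 bases, and its flanking peaks, with scores of 114.46 and 149.37, held 0 and 1. The 1459 bp gap in the HoxB cluster, in an intron of an annotated Hoxb3 transcript, held no CpG, between 9 and 11 in the flanking peaks, both with a score of 3100. The 2863 bp gap at Vax2 lay in an intron of the noncoding Vax2os1 and held 1 CpG, against 5 and 6. The CpG number of the gap was thus below both flanking peaks at 2 of these 3 gaps.

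The second set shows breaks of a few bases. The first 3 are among the smallest gaps with a GC content of at least 70% around them and no annotated untranslated region in the window, and the last 2 held long runs of pyrimidines. This set was chosen after the values were seen.
Rbp4, 3 bp gap (chr19:38199345-38199464): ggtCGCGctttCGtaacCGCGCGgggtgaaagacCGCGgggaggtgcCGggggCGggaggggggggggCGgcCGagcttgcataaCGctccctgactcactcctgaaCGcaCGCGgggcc
Fign, 3 bp gap (chr2:63936432-63936551): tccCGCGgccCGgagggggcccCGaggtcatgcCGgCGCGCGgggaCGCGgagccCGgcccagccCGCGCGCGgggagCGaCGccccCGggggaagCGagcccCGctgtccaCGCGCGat
Gm5607, 3 bp gap (chr8:12395373-12395492): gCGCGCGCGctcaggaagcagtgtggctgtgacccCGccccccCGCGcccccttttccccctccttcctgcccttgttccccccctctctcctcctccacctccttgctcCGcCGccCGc
HoxA, 4 bp gap (chr6:52200473-52200592): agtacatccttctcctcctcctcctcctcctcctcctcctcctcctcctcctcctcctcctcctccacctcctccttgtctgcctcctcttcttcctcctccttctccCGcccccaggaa
Pax2, 3 bp gap (chr19:44817474-44817593): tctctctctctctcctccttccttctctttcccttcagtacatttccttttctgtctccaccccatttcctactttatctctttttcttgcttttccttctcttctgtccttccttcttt

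Around the gaps at Rbp4 and Fign the 120 bases held 16 and 23 CpGs, and around the gap at Gm5607 they held 10. The longest stretch made only of C and T had 60 bases in the HoxA window and 36 bases in the Pax2 window, which held no CpG. The Pax2 stretch stood at the start of the window and did not reach the gap. The gaps at Rbp4 and Gm5607 lay in introns and the other 3 between genes.

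Gaps between the Jarid2-K116me2 peaks were short. The 360 split regions held 906 of the 4502 Jarid2-K116me2 peaks (20.1%) and 383 of the 4992 Jarid2 peaks (7.67%). A region held 2 Jarid2-K116me2 peaks in 274 cases (76.1%), 3 in 43, 4 in 20, and 5 or more in the rest, with 14 at most. The Jarid2 list showed 1 peak in 337 of the regions (93.6%) and 2 in 23. The 546 gaps had a median length of 101 bp (95% interval from order statistics 82 to 122 bp, which covers sampling of gaps alone), with quartiles of 32.25 and 433.25 bp and the shortest were 2 bp long. Of these, 272 (49.8%) were shorter than 100 bp, the length of 1 sequencing read, and 120 were of 500 bp or more. In 169 regions (46.9%) the widest gap was under 100 bp, in 94 (26.1%) it was 500 bp or more, and in 19 it was 2000 bp or more. The gaps made up 6.39% of the total width of the split regions. A gap is a stretch without a called Jarid2-K116me2 peak. As the lists give no signal between peaks, they do not tell how low the signal was there.

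**Figure D1:**
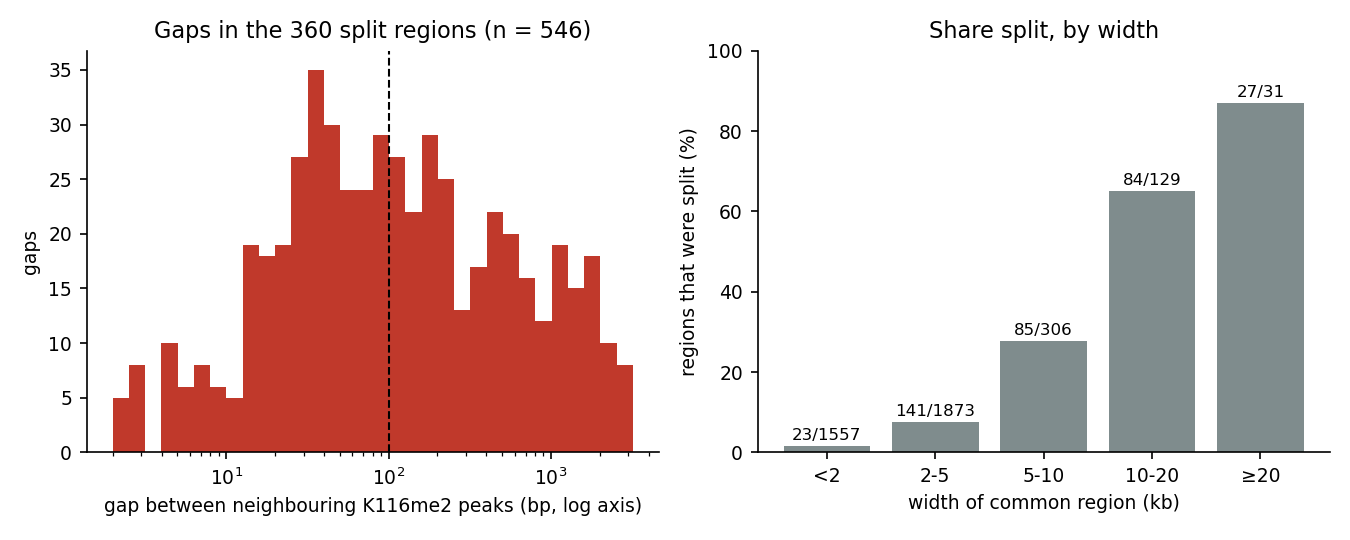
Left, histogram of the 546 gaps between neighbouring Jarid2-K116me2 peaks of the 360 split regions (bp, log axis), with the median of 101 bp as a dashed line. Right, share of common regions that were split (%), by width in kb, with the numbers above the bars. The share rose from 1.48% under 2 kb to 87.1% at 20 kb or more.

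Split regions were wide. Their median width was 5398.5 bp (quartiles 2899.75 and 11884.5, range 973 to 91396), against 2187 bp (quartiles 1547 and 3168, up to 24314) for single-peak regions. Under 2 kb, 23 of 1557 common regions (1.48%) were split. The share was 7.53% (141 of 1873) at 2 to 5 kb, 27.8% (85 of 306) at 5 to 10 kb, 65.1% (84 of 129) at 10 to 20 kb, and 87.1% (27 of 31) at 20 kb or more. Wide gaps lay in wide regions: the median width was 3219 bp where the widest gap was under 100 bp, 5750 bp at 100 to under 500 bp, and 11807 bp at 500 bp or more. Width and splitting rose together, and cannot be told apart in these lists.

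The reverse arrangement, with several Jarid2 peaks under 1 Jarid2-K116me2 peak, was found in 28 of the 3536 single-peak regions (0.792%). With the 23 split regions that held 2 Jarid2 peaks (6.39%), 51 of the 3896 common regions (1.31%) held 2 or more. In the whole Jarid2-K116me2 list, 297 gaps between neighbouring peaks were shorter than 100 bp, of which 272 (91.6%) lay under 1 Jarid2 peak. In the Jarid2 list, 222 such gaps were found, of which 39 (17.6%) lay under 1 Jarid2-K116me2 peak. The lists were not cut at the same level, as Jarid2 peaks reached down to a MACS score (minus 10 times log10 of p) of 62.07 and Jarid2-K116me2 peaks to 91.86. The part of this difference in the splitting was not tested. The regions just inside the rule had gaps of 2 bp, at Ica1l, at Fam125b, near Gm13429 and among the Pcdha genes, each between 2 Jarid2-K116me2 peaks. A gap of 2 bp at Gm13289 lay in a region with 3. Just outside it, the widest stretches of Jarid2 peak without Jarid2-K116me2 in single-peak regions were 5498 bp at Gpm6a (scores 109.76 and 212.27 for Jarid2 and Jarid2-K116me2), 4304 bp at Gm13241 and 3797 bp at Dmrt2 (3100 for both antibodies).

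Of the 12 regions with 6 or more Jarid2-K116me2 peaks, 4 consisted largely of repeated sequence, and most of the others covered Hox clusters or loci of lineage regulators. Hox genes encode homeobox factors that set position along the body axis. The HoxC region (chr15:102760036-102851431, 91396 bp) was 1 Jarid2 peak with a score of 1683.06 and held 14 Jarid2-K116me2 peaks over the TSSs of Hoxc4 to Hoxc12. Of these 14 peaks, 7 had a score of 3100, 1 of 2038.23 and the other 6 lay between 114.46 and 323.16. The 2 widest were 19169 and 18108 bp long and lay 59 bp apart. The gaps ran from 8 to 1833 bp. The HoxB region (chr11:96129195-96218991, 89797 bp) was again 1 Jarid2 peak, scored 2020.7, and held 11 Jarid2-K116me2 peaks over Hoxb2 to Hoxb9, of 710 to 29626 bp, with gaps from 21 to 1459 bp. The main HoxA region (chr6:52141827-52205388, 63562 bp) had a Jarid2 score of 745.51 and held 7 Jarid2-K116me2 peaks over TSSs of Hoxa3, Hoxa5, Hoxa6, Hoxa7, Hoxa9, Hoxa10 and Hoxa11, the widest of 39675 bp. In each of these regions strong wide peaks stood beside weak narrow ones.

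Nr2f2 (chr7:77468788-77516457, 47670 bp), which encodes the orphan nuclear receptor COUP-TFII, held 8 Jarid2-K116me2 peaks with a widest gap of 2421 bp. A region at the noncoding gene C130071C03Rik (chr13:83853030-83874109, 21080 bp) held 6, as did the imprinted signalling adaptor gene Grb10 (chr11:11922308-11941408, 19101 bp), whose widest gap was 2535 bp. Other wide gaps were of 2831 bp in a region with no TSS, 87950 bp from that of Mir148a (chr6:51128668-51135252), 2791 bp at Nfix (chr8:87294621-87312807) and 2787 bp at Gsx2 (chr5:75467490-75481166).

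The 4 regions in repeated sequence included 2 in the cluster around the interferon gene Ifnz, with 6 peaks each. Another covered an array of 5S ribosomal RNA genes (chr8:126061027-126124345, 63319 bp, 8 Jarid2-K116me2 peaks) where Jarid2 scored 317.69 and Jarid2-K116me2 3100, with gaps of 55 to 92 bp. The last (chr6:47601300-47637093, 35794 bp, 7 peaks) held no annotated TSS, had scores of 502.71 and 3100, and gaps of 25 to 67 bp. The aligner reported 1 location for a read with several, so the peaks there cannot be assigned to 1 copy.

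**Figure D2:**
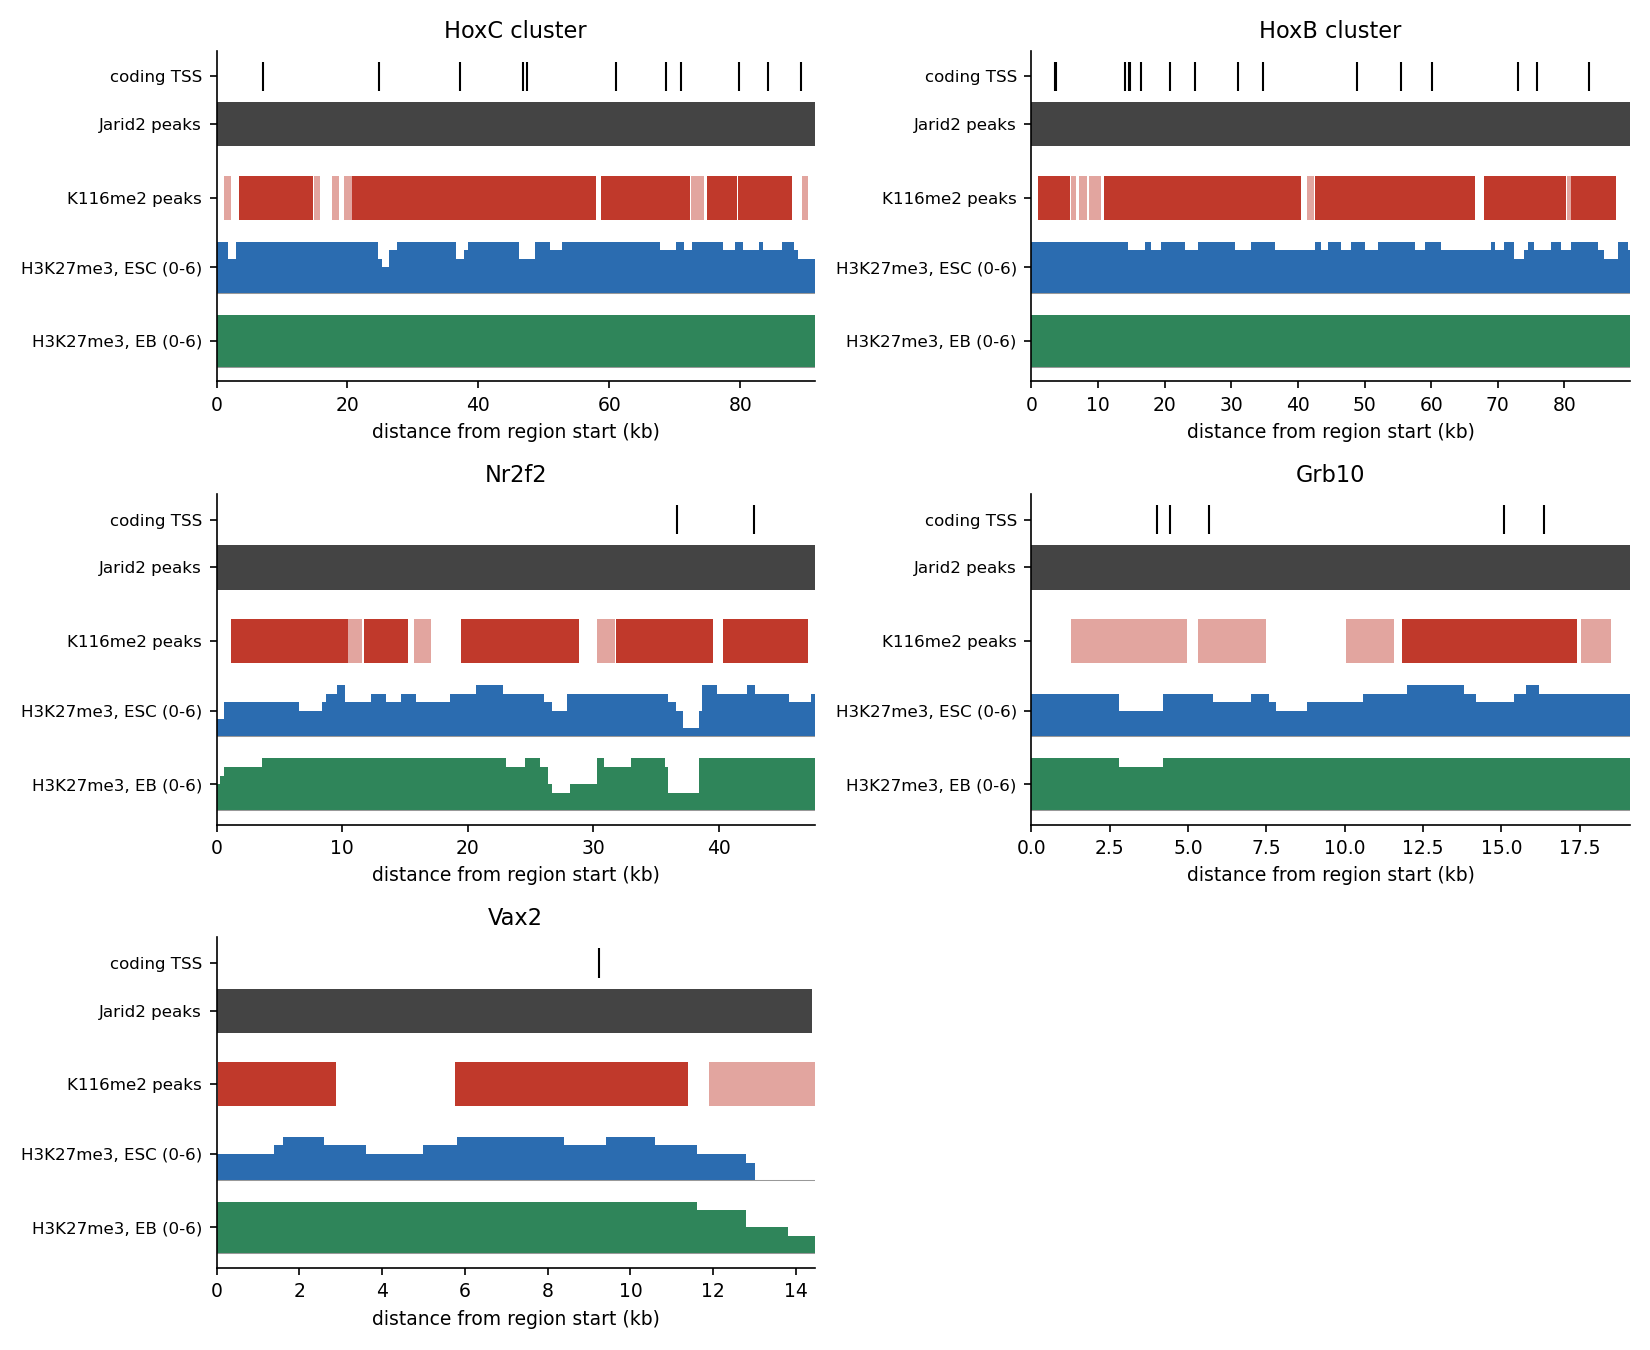
Maps of 5 split regions (x axis, distance from the start of the region in kb) with coding TSSs (ticks), Jarid2 peaks (grey) and Jarid2-K116me2 peaks (red, pale below a score of 1000). Blue and green bars give how many of 6 ESC and 6 EB samples had H3K27me3 peaks over at least 50% of each step along the region. Single Jarid2 peaks span the HoxC, HoxB, Nr2f2, Vax2 and Grb10 regions, while the red peaks break, with gaps of up to 2863 bp, at Vax2.

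Scores differed widely among the Jarid2-K116me2 peaks of split regions. The peaks of a region were ranked by score, and at equal scores by width. The strongest peak thus scores at least as high as the others by definition. The strongest peak of a region had a median score of 2520.995 and a median width of 2704 bp, and the others a median score of 324.315 and a median width of 1229 bp. The weakest peak scored under 200 in 163 regions (45.3%), and in 17 (4.72%) every peak was at 3100 or more, where scores pile up and no longer rank peaks. Both antibodies reached 3100 in 152 split regions (42.2%), against 18.5% of all common regions and 16.1% of single-peak regions. The median of the highest Jarid2-K116me2 score was 1294.26 in regions with a widest gap under 100 bp, 2529.3 at 100 to under 500 bp, and 3100 at 500 bp or more.

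The strongest peak usually held the TSS. A TSS of an annotated transcript lay in 297 split regions (82.5%, 95% Wilson interval 78.2% to 86.1%, for counting error only), against 74.2% of all common regions and 73.4% of single-peak regions. TSSs of 2 or more protein-coding genes lay in 37 split regions (10.3%), against 3.44% of all common regions. Split regions were also wider, and the part of width in these shares was not tested. The strongest Jarid2-K116me2 peak held a TSS in 255 of the 360 regions (70.8%), whereas 136 of the 546 other peaks (24.9%) held one. TSSs numbered 0.446 per kb in strongest peaks, 0.264 per kb in the others and 0.208 per kb in gaps. Midpoints of gaps lay in introns in 36.1% of cases, between genes in 48.0%, in untranslated regions in 8.24%, in noncoding exons in 4.03% and in coding exons in 3.66%. Short gaps lay nearer to TSSs: 47.1% of the gaps under 100 bp lay within 1 kb of one, against 31.8% at 100 to under 500 bp and 10.8% at 500 bp or more, with median distances of 1141.5, 2122 and 3095.5 bp.

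A TSS fell into 26 gaps (4.76%) of 24 regions. Those named here were picked from the 26 after their values were seen, for genes of known roles. At Id2, an inhibitor of basic helix-loop-helix (bHLH) factors, a TSS lay in a gap of 1808 bp between Jarid2-K116me2 peaks with scores of 139.58 and 192.44. At Hes6, a bHLH factor of the Hes family, 4 TSSs lay in a gap of 214 bp (scores of 387.26 and 484.59), and at Lefty1, a Nodal antagonist, in a gap of 159 bp (128.35 and 122.59). The Jarid2 scores of these 3 regions were 1041.04, 1206.51 and 212.96. At Pax6, a regulator of eye and forebrain development, a TSS lay in a gap of 1060 bp between peaks of 3100 and 274.75. A Hoxc4 TSS lay in a gap of 1505 bp in the HoxC region. Commd3 had 2 TSSs in a gap of 696 bp (1377.22 and 2216.26). Its neighbour Bmi1, a subunit of PRC1, lay in a separate split region (chr2:18598586-18607384).

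Transcription factor genes were often found in split regions. Of 2801 protein-coding genes with a TSS in a common region, 342 (12.2%) had one in a split region. The share was 34 of 39 (87.2%) for the Hox genes, 49 of 108 (45.4%) for other homeobox factors, 18 of 48 (37.5%) for Sox, Gata, T-box and forkhead factors, and 20 of 58 (34.5%) for bHLH and zinc finger lineage factors. For signalling ligands, receptors and antagonists it was 8 of 62 (12.9%). Regions of transcription factor genes were also wide. Among genes in common regions over 5 kb, 47.1% (211 of 448) were in split regions, and the shares were 34 of 36 for Hox genes (94.4%), 47 of 90 for other homeobox factors (52.2%), 17 of 37 for Sox, Gata, T-box and forkhead factors (45.9%), 17 of 41 for bHLH and zinc finger factors (41.5%), and 4 of 25 for signalling genes (16.0%). At this width the lists of other transcription factors lay near the share of all genes, the Hox genes above it and the signalling genes below it. The share of all genes includes the listed genes. Widths over 5 kb were not matched, and Hox genes in common regions had a median width of 63562 bp. In regions of up to 5 kb the share was 5.52% (130 of 2353) for all genes and 10.8% (4 of 37) for signalling genes. There it was 11.1% (2 of 18) for other homeobox factors, 9.09% (1 of 11) for Sox, Gata, T-box and forkhead factors, 17.6% (3 of 17) for bHLH and zinc finger factors, and 0 of 3 for Hox genes. Genes of 1 cluster share a region, as the 34 Hox genes lay in 9 regions.

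**Figure D3:**
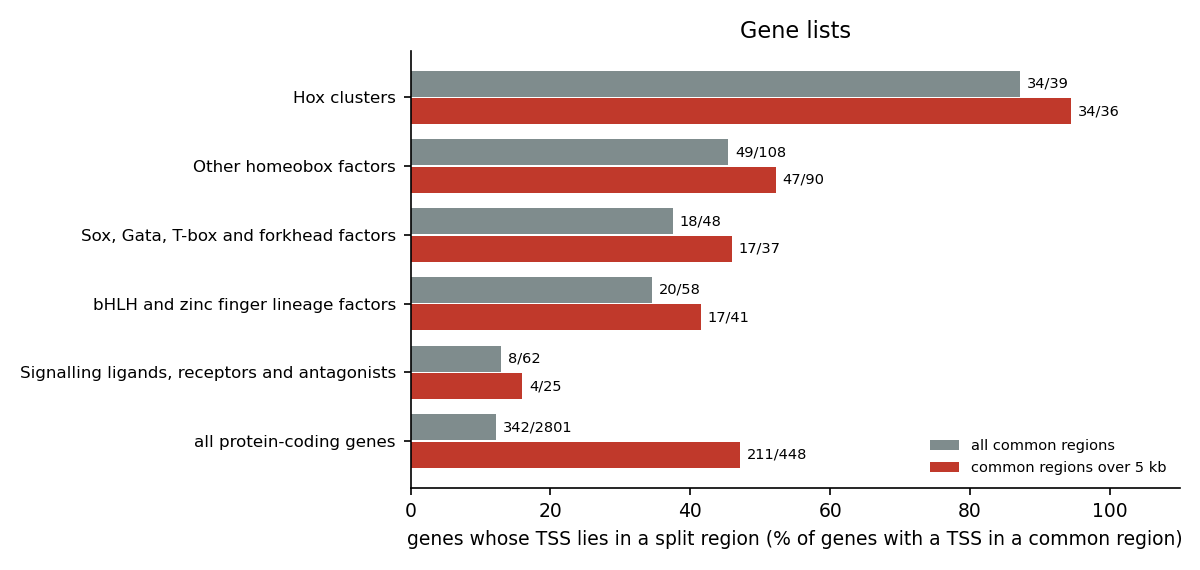
Genes whose TSS lay in a split region, as a percentage of the genes with a TSS in a common region (grey) and in a common region over 5 kb (red), for the gene lists and for all protein-coding genes, with numbers beside the bars. Hox genes stand highest in both (87.2% and 94.4%), and signalling genes are at 12.9% and 16.0%.

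The 9 split Hox regions had a median width of 21735 bp, 2 to 14 Jarid2-K116me2 peaks, and a gap of 500 bp or more in 7. Hoxd8 to Hoxd12 shared 1 region of 41995 bp with 5 peaks (widest gap 1362 bp), Hoxd13 lay with Evx2 in 1 of 19594 bp with 5 peaks, and Hoxa2 and a Hoxa3 TSS lay in 1 of 20578 bp with 3 peaks. Hoxa4, Hoxa13, Hoxb1 and Hoxd1 were among the Hox genes in single-peak regions. The 48 split regions of other homeobox genes had a median width of 14712.5 bp, and both antibodies reached 3100 in 43 of them. Among the 48 regions, Pax2 (kidney and midbrain, 23134 bp) and Emx2 (cortex, 20412 bp) held 5 Jarid2-K116me2 peaks with widest gaps of 408 and 1386 bp. Pou4f1 (sensory neurons, 11814 bp, both scores below 3100) held 5 with a gap of 2520 bp, and Pax3 (neural crest and muscle, 33379 bp) held 4 with a gap of 2715 bp.

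Among the 18 split regions of Sox, Gata, T-box and forkhead factors, Foxd1 (16580 bp) held 5 Jarid2-K116me2 peaks, Sox21 (13978 bp) and Tbx5 (10713 bp) held 4, and Gata3 (21408 bp) and Gata4 (14352 bp) held 3. The widest gaps at Gata3 and Gata4 were 74 and 139 bp, against 664, 965 and 503 bp at the former genes. Among the 20 regions of bHLH and zinc finger factors, Zic2 (17478 bp) and Neurod2 (13107 bp) held 5 peaks, and Nr2e1 (24405 bp), Prdm13 (17935 bp) and Tal1 (13579 bp) held 4, with widest gaps of 553 to 2318 bp. The 8 signalling genes were Wnt3a, Wnt9a and the receptor gene Fzd8, the Wnt inhibitor Sfrp2, the activin subunit Inhbb, the BMP antagonist Nog, the Nodal antagonist Lefty1 and the Notch ligand Dll4. They lay in narrower regions, with a median of 4460 bp, and in 1 of them, at Fzd8, a gap reached 500 bp (531 bp). At Wnt3a and Wnt9a the Jarid2-K116me2 peaks were 49 and 44 bp apart.

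Among 30 annotated Polycomb genes, 7 had a TSS in a common region and 2 in a split region: Bmi1 (8799 bp, gap of 631 bp, 3100 for both antibodies) and the PRC2 accessory gene Phf19 (2345 bp, gap of 44 bp, 681.15 for Jarid2 and 688.15 for Jarid2-K116me2). Among the pluripotency factors, 3 had a TSS in a common region, and 2 of these were in split regions: Tbx3 (3030 bp, gap of 342 bp, 584.78 and 347.73) and Prdm14 (2894 bp, gap of 27 bp, 1194.94 and 618.03). Both genes also stand in other lists.

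Wide gaps were poor in CpG, and windows around short gaps had a different base composition. The CpG content, as observed over expected from the base composition, had a median of 0.586 in the strongest Jarid2-K116me2 peaks, 0.485 in the other peaks and 0.209 in the 120 gaps of 500 bp or more. In 1 kb windows 10 kb away from the split regions it was 0.204 on the left and 0.198 on the right. The GC content was 55.6%, 52.2% and 43.4% in strongest peaks, other peaks and wide gaps. Whole split regions had a median of 0.534 and single-peak regions of 0.588. Of 342 gaps of at least 50 bp in which the ratio could be computed, 188 (55.0%, 95% Wilson interval 49.7% to 60.2%) had a lower ratio than both flanking peaks and 77 (22.5%) a higher one. For gaps of 300 bp or more the shares were 69.4% (111 of 160) and 5.62%. Against the 500 bp of each peak next to the gap, the share below both was 38.0%, and 31.6% of gaps were above both.

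At the midpoints of the 272 gaps under 100 bp, 83 windows of 120 bases (30.5%) had a GC content of 70% or more, against 12.3% at the midpoints of the flanking peaks, 14.9% at 300 bp outside the gaps, and 33.7% at the midpoints of the Jarid2-K116me2 peaks of single-peak regions. Runs of at least 30 bases made only of purines or only of pyrimidines were present in 49 of these windows (18%), against 1.47% at the midpoints of the flanking peaks, 1.65% at 300 bp outside, and 0.707% at the midpoints of single peaks. The HoxA and Pax2 sequences above are of this kind. The windows are longer than these gaps and so include bases of the flanking peaks, the more so at the 193 gaps under 50 bp. A run can thus lie outside the gap, as at Pax2. Of the windows at the 272 short gaps, 132 (48.5%) had at least 1 of the features. The share was 13.6% at flanking midpoints, 16.5% at 300 bp outside and 34.3% at the midpoints of single peaks. Breaks under 100 bp between Jarid2 peaks held such runs in 16.2% and a GC content of 70% or more in 19.8% of 222 cases. At least 1 of the features was present in 34.7% of these breaks. At gaps of 500 bp or more, 44 of 120 midpoints (36.7%) had a GC content under 40%, against 14.2% at flanking midpoints, and 1 had a run. The choice of these windows followed a look at the sequences. Reads per base were not in the files, so how many reads mapped over these sequences was not tested.

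**Figure D4:**
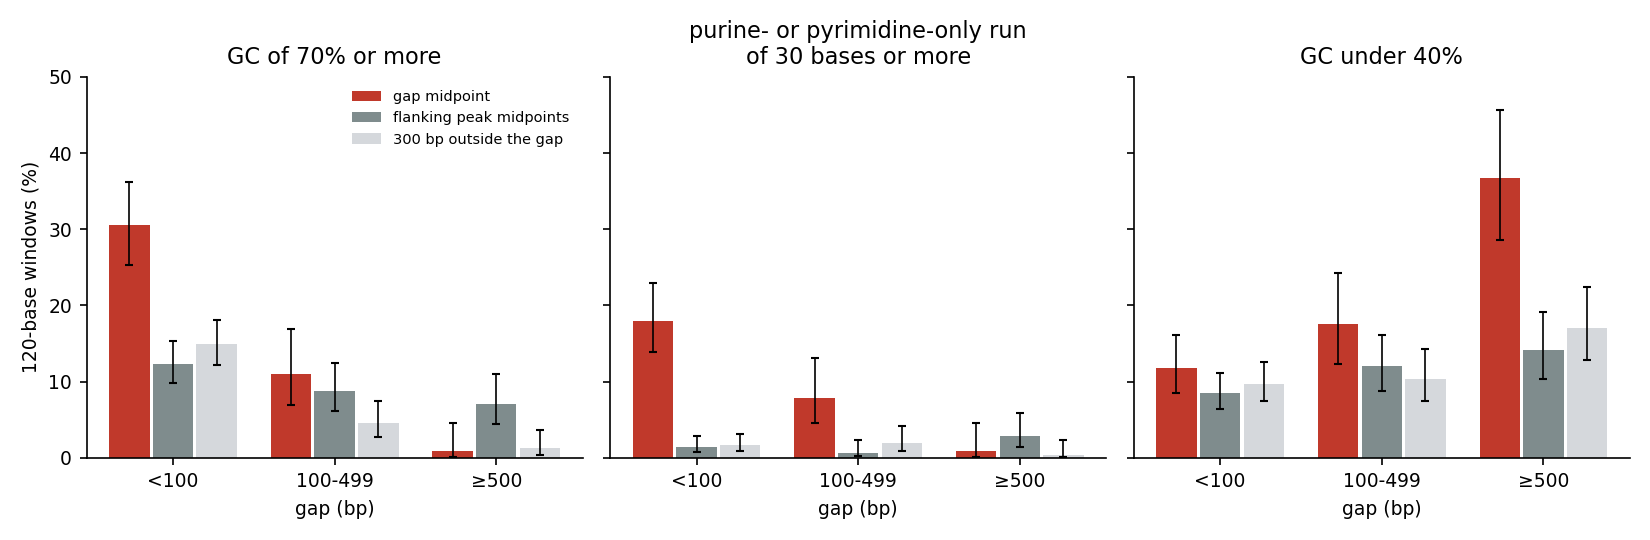
Share of 120-base windows (%) with a GC content of 70% or more, with a run of 30 or more bases of purines or pyrimidines alone, or with a GC content under 40%, by gap length (bp). Bars stand for gap midpoints (red), midpoints of flanking Jarid2-K116me2 peaks (grey) and positions 300 bp outside the gap (light grey), and error bars are 95% Wilson intervals (counting error). Runs were found in the windows of 18% of gaps under 100 bp, and low GC in those of 36.7% of gaps of 500 bp or more.

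Some split regions lay in repeated sequence. Over 10% of the 100-base stretches occurred more than once in the genome in 30 split regions (8.33%), against 4.85% of all common regions. None was repeated in 274 split regions (76.1%), against 90.5% of single-peak regions. Split regions were wider and so held more such stretches, and the part of width in the latter shares was not tested. The 30 repeated regions were narrower (median width 2467 bp, against 5779.5 bp in the other 330), with a median Jarid2 score of 668.43 (3100 in the others) and a median Jarid2-K116me2 score of 808.595 (2875.635 in the others). Of their 59 gaps 69.5% were under 100 bp, against 47.4% of the 487 others, and none was longer than 485 bp. They included 11 regions on chromosome 4, most of them in a cluster around the interferon gene Ifnz, 8 on chromosome 14, and Zxda and Zxdb on the X chromosome. For reads that map to several copies, the source cannot be told apart.

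H3K27me3 covered the split regions to an extent that differed more between ESC replicates than between lines. The H3K27me3 lists held 1478 to 14125 peaks. ESC Jarid2 rescue replicate 1 stood apart with 1478 peaks, against 3554 to 14125 in the other 11 samples, so results are given with and without it. The mean share of the length of a split region under H3K27me3 peaks in ESC was 43.9% and 80.6% in the 2 KO replicates, 13.3% and 71.2% in Jarid2 rescue, and 49.4% and 77.3% in K116A rescue. Replicate 2 was the higher in each line. The study describes the replicate 2 samples as those of higher quality, and used them to set its peaks for comparing ESC with EBs. Its supplement lists more reads for ESC Jarid2 rescue replicate 1 than for any other ESC sample. In EBs it was 55.7% and 61.5% in KO, 59.9% and 58.8% in Jarid2 rescue, and 64.2% and 70.5% in K116A rescue. EB values lay inside the range of the ESC values. The mean was 56.0% over 6 ESC and 61.8% over 6 EB samples, a difference of 5.83 points (exact permutation test within lines, two-sided, p = 0.648, 0.778 after Benjamini-Hochberg adjustment over 7 tests of coverage). Without ESC Jarid2 rescue replicate 1 the difference was -3.81 points, and without ESC KO replicate 1 it was -0.29. With the replicate 2 samples alone it was -12.8 points. For such bulk samples, a mark in fewer cells and less of the mark in each cell cannot be told apart.

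No difference between lines passed a test, and none could, since 2 samples against 2 give an exact two-sided permutation p of 0.333 at the least. In ESC, KO minus Jarid2 rescue was 20.0 points (62.3% ± 26.0 against 42.3% ± 40.9, SD, n = 2 each, exact permutation p = 0.667) and K116A rescue minus Jarid2 rescue 21.1 points (63.4% ± 19.8, SD, n = 2, exact permutation p = 0.667). Without Jarid2 rescue replicate 1 these values were -8.90 and -7.83 points. In EBs the differences were -0.75 points for KO (58.6% ± 4.11 against 59.4% ± 0.79, SD, n = 2 each, exact permutation p = 1.0) and 8.00 points for K116A rescue (67.4% ± 4.45, SD, n = 2, exact permutation p = 0.333). Both K116A rescue EB samples lay above both Jarid2 rescue EB samples.

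Split regions were covered more than single-peak regions in each of the 12 samples, with a mean of 58.9% against 46.1%, a difference of 12.8 ± 3.92 points (SD of the 12 differences, exact sign-flip permutation test, two-sided, p = 0.00049, the smallest it can give, adjusted p = 0.0017). All 12 samples measure the same regions, so p-values of this comparison are over samples and do not measure the spread among regions. The sign of the difference turned among regions in a shared width window, within which widths were not matched. Over all widths, 270 of 3536 single-peak regions were wider than 5 kb, against 196 of 360 split regions. In the 180 split and 1047 single-peak regions with widths between the quartiles of the split regions, coverage was 57.9% against 63.5%, a difference of -5.61 ± 3.49 points, negative in 11 of 12 samples (exact sign-flip permutation p = 0.00146). The exception was ESC Jarid2 rescue replicate 1, with 2.63 points.

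**Figure D5:**
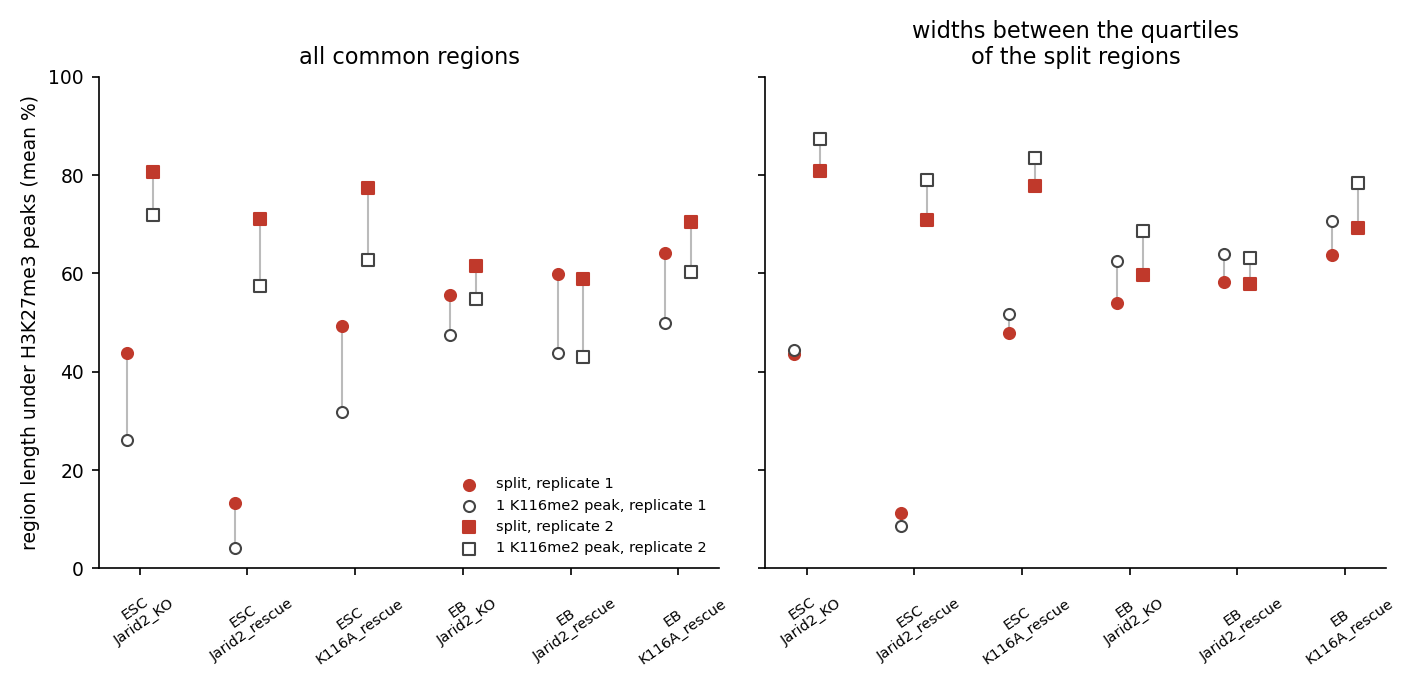
Mean share of region length under H3K27me3 peaks (%) in the 12 samples, for split regions (red) and single-peak regions (open), joined by a line for each sample, with circles for replicate 1 and squares for replicate 2. Left, all common regions, where split regions are higher in 12 of 12 samples. Right, regions of widths between the quartiles of the split regions, where they are lower in 11 of 12.

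Gaps were covered by H3K27me3 slightly less than the Jarid2-K116me2 peaks of the same regions. Mean coverage was 57.5% for gaps and 59.1% for peaks of the split regions, a difference of -1.53 ± 1.24 points (SD, n = 12), negative in 12 of 12 samples (exact sign-flip permutation test, two-sided, p = 0.00049, the smallest it can give, adjusted p = 0.0017). In the 94 regions with a gap of 500 bp or more the difference was 1.85 ± 2.72 points, positive in 8 of 12 samples (71.7% against 69.9%, exact sign-flip permutation p = 0.041, a comparison added after the data were seen). These p-values too are over samples and do not measure the spread among regions. The smallest distance between neighbouring peaks of an H3K27me3 list was 1081 to 1457 bp, depending on the sample, so a dip as narrow as most gaps could not appear in these lists.

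An H3K27me3 peak overlapped 154 split regions (42.8%) in all 6 ESC samples, against 16.8% of all common regions. Without ESC Jarid2 rescue replicate 1 it was 255 (70.8%) against 47.2%. In all 6 EB samples 243 split regions (67.5%) had a peak, against 51.1%. In all 12 samples 40.6% of the split regions had one, against 15.7%, and 221 (61.4%) against 38.4% without that ESC sample. The split regions were also the wider ones, and the part of width in these shares was not tested. At the HoxC region coverage ran from 73.0% to 100% in ESC (median 97.8%, n = 6) and was 100% in all 6 EB samples. At the main HoxA region it ran from 5.5% to 100% in ESC (median 86.2%) and from 97.7% in EBs. At Nr2f2 it was 9.58% to 100% in ESC (median 90.3%) and 74.4% to 100% in EBs (median 88.2%). At Emx2 it was 0 to 88.0% in ESC (median 36.8%) and 0 to 25.5% in EBs (median 1.21%).

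No H3K27me3 peak was found in any ESC sample in 19 split regions (5.28%), against 12% of all common regions, and both values were the same without Jarid2 rescue replicate 1 (19, against 12%). In none of the 12 samples was one found in 14 (3.89%), against 9.27%. Of the 19 regions, 8 were among the 30 in repeated sequence, where peaks cannot be assigned to 1 copy. The widest of the 19 were Inhbb (3717 bp), Bbx, a Pcdhgc5 region, Prdm14 and Zxda. At Inhbb coverage was 0 in all 6 ESC samples and 100% in all 6 EB samples, which made it the 1 split region (0.278%) with peaks in no ESC and all EB samples, against 0.411% of common regions. At Prdm14, a factor of naive pluripotency, it was 0 in ESC and in 4 EB samples, and 17.7% and 100% in K116A rescue EBs. At Lefty1 it was 0 in ESC and up to 35.2% in EBs. Hes6 was covered in 2 ESC samples (39.7% and 34.3%) and in no EB sample.

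No split region had peaks in all 6 ESC and no EB sample, against 0.0257% of common regions (1 region). Leaving ESC Jarid2 rescue replicate 1 aside, 5 split regions (1.39%) had peaks in the other 5 ESC samples and no EB sample, against 1.1%. The nearest genes were Nsf, Gprc5c, Zfp362, Ankrd33 and Plekho1. In the region near Nsf (7158 bp, 3100 for both antibodies) coverage in these 5 ESC samples ran from 24.5% to 95.9%. By line, KO had peaks in both ESC and neither EB sample at 21 split regions (5.83%, against 5.34% of common regions) and in both EB and neither ESC sample at 1 (0.278%, against 1.41%). For Jarid2 rescue these numbers were 0 (against 0.103%) and 4 (1.11%, against 1.77%), and for K116A rescue 23 (6.39%, against 4.44%) and 6 (1.67%, against 2.7%). The Jarid2 rescue numbers include the ESC sample with few peaks. The differences between lines in these numbers were not tested.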

How the data were processed

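ChIP-seq peak lists of Jarid2 and Jarid2-K116me2 (1 E14 ESC sample each) and of H3K27me3 (12 samples) were analysed. Inputs had no lists. Per the submitters' processing notes and the study's methods, single reads of 100 bp were mapped to mm9 with Bowtie2 2.1.0, with 1 location for reads that map to several, PCR duplicates were removed with Picard, and peaks were called for each sample with MACS 1.4.2 (Jarid2, Jarid2-K116me2) or, as broad peaks, MACS2 2.0.10 (H3K27me3). The deposited files give positions and a score. For the Jarid2 lists the authors' score is minus 10 times log10 of p, not normalized for depth. The scale of the H3K27me3 score is not given in the sources used here, and it was used only for an added alternative. The supplement of the study lists somewhat more reads for Jarid2 than for Jarid2-K116me2.

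Peaks were merged into regions at an overlap of 1 bp. TSSs, exons and introns were taken from GENCODE vM1 and sequence from NCBIM37, the same build as mm9. H3K27me3 coverage was the mean percent of region length under peaks, compared over samples with exact permutation tests. Regions named were the 10 with the most Jarid2-K116me2 peaks, the 5 with the widest and the 5 with the smallest gaps, up to 6 for each gene list, up to 5 for each H3K27me3 pattern, and 3 just inside and 3 just outside the rule. Some items that this rule takes in are not reported here. Regions and lists were chosen with earlier results of these data known. The functions were tested on simulated peaks. The software was pysam 0.24.0, numba 0.67.0, scipy 1.17.1, pandas 2.3.3 and numpy 2.4.6 under Python 3.11.15. Alternatives were other overlaps, joining of near peaks, score minimums, other TSS sets, gap lengths, samples left out, a width window and the replicate number as a block.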

Additional observations from a re-analysis of the deposited data

Results flagged for a closer look

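Among the 6 ESC samples, the difference in H3K27me3 coverage between gaps and Jarid2-K116me2 peaks stood apart in 1 sample, KO replicate 1. It was -4.89 points there, with 40.2% of gap length and 45.1% of peak length covered, against -1.80 to -0.22 points in the other 5 ESC samples. The distance to the nearest of these was 0.66 of the whole range, above Dixon's 95% critical value for 6 samples. This was the only such case among the 8 groups of samples screened, that is, 4 measures in ESC and in EBs. Chance alone picks out about 1 in 20 groups.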

How the results depend on the processing

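The number of split regions depended on how breaks and weak peaks were treated. It was 93 when Jarid2-K116me2 peaks under 500 bp apart were joined, 58 when those under 1000 bp were joined, 234 with peaks of a score of 200 or more and 143 with 500 or more, against 360 as reported, and the median gap was 142 bp at a score of 200 or more. The share of gaps with less CpG than both flanking peaks was 69.4% for gaps of 300 bp or more and 38.0% against the 500 bp next to the gap. The EB minus ESC difference was -1.34 points as the share of regions overlapped (p = 0.935, exact permutation test), -12.8 with replicate 2 alone, and -3.81 to 15.5 with 1 sample left out (exact permutation p from 0.259 to 0.991). Split minus single-peak coverage turned to -5.61 in the width window, and stayed at 12.3 to 13.3 with 1 sample left out. Gap minus peak coverage turned to 1.85 in regions with a gap of 500 bp or more, and was -1.64 to -1.22 with 1 sample left out. Leaving out 1 sample gave -8.90 to 48.9 points for KO and -7.83 to 50.02 for K116A rescue minus Jarid2 rescue in ESC, and -3.66 to 2.16 (positive without KO replicate 1) and 4.85 to 11.1 in EBs. In EBs, KO minus Jarid2 rescue was 2.03 with H3K27me3 peaks of a score of 50 or more and 2.71 with replicate 2 alone, where K116A rescue minus Jarid2 rescue was 11.7. Without ESC Jarid2 rescue replicate 1, 255 split regions had a peak in every ESC sample, 221 in every sample, and 19 in no ESC sample. The cause of these changes was not tested. The other 81 alternative values kept their direction and side of the threshold, or moved by less than the spread. Some of these could not do otherwise. All 546 gaps lay inside 1 Jarid2 peak, so keeping only such gaps repeated the main values. The comparisons between lines cannot pass the threshold at these sample numbers, so only their direction or size could change.

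The replicate number as a block gave p = 0.656 for EB minus ESC (5.83 points), 0.5 for both ESC line differences (20.0 and 21.1 points), and 1 and 0.5 in EBs (-0.75 and 8.00 points, all exact permutation tests), and changed no call. For the line differences no call could change at these sample numbers. Deviations of same-numbered samples correlated at 0.295 to 0.521 between the 3 ESC lines, at -0.0034 to 0.181 between the 3 EB lines, and at 0.0441 to 0.147 between ESC and EBs of a line, and over 0.1 in 7 of all 15 pairs of groups. The labels do not say what a shared number marks, so the samples were not taken as paired. A minimum on the q-value of H3K27me3 peaks was not run, as the files used hold no q-value. The removal of regions in repeated sequence, the score of 50, the regions with a gap of 500 bp or more and the counts without 1 ESC sample were chosen after seeing the data. A single sample per antibody, and lists without reads per peak, limit all values of Jarid2 and Jarid2-K116me2.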
